A study of Mus musculus with 7 samples.

Results

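The β-cells of obese mice bred to delete Aldh1a3 in β-cells (Aldh1a3 KO_db/db) were compared with the β-cells of lean db/+ mice, to describe what differed from the lean state. The comparison used 5 of the 7 libraries of the series, 2 from KO_db/db and 3 from db/+ mice, and 13180 of its 35013 gene symbols. These 13180 genes passed a filter on low counts (a minimum of about 10 counts in at least 2 libraries). A further 48 genes that passed it, 42 acinar enzyme genes and 6 genes of the Reg family, were set aside. All mice carried the RIP-Cre Herr transgene, in which a rat insulin promoter drives Cre, and the reporter tdT fl/+. The KO_db/db mice were also Aldh1a3 fl/fl and Lepr db/db. The lean mice were Aldh1a3 fl/+ with Lepr db/+, so they too had Cre, 1 floxed Aldh1a3 allele and 1 db allele. The groups differed in Aldh1a3 and Lepr together, so effects of the knockout and of leptin receptor deficiency cannot be told apart here. Unless stated otherwise, mice of the study were of either sex and aged 16 to 20 weeks. The mice were fasted before their islets were taken. Each library is labelled as a numbered mouse and was made from mRNA of sorted β-cells. The sex and age of the sequenced mice and the gate of this sort are not given in the sources used here.

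β-cells make insulin, store it in dense granules and release it when glucose uptake and oxidation close potassium channels and open calcium channels. The db mutation removes the signalling form of the leptin receptor, and homozygous mice overeat, become obese and develop diabetes. Under this load β-cells can lose mature features and regain progenitor genes, a state called dedifferentiation, of which the retinaldehyde dehydrogenase Aldh1a3 is a marker.

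The libraries held between 27496645 and 35852785 estimated counts. Levels are given as CPM, counts divided by the library total and scaled by TMM factors over the 5 libraries. A difference is the log2 fold change of KO_db/db over db/+, given with its standard error (SE) and the adjusted p (edgeR quasi-likelihood F-test, Benjamini-Hochberg method over all tested genes). Values are given for KO_db/db mice 1 and 2 first and then for db/+ mice 1, 2 and 3. CPM is not divided by transcript length, so levels are compared between libraries and not between genes. Both groups held the transcripts that define β-cells, with Ins2 at 187079 and 139937 CPM in KO_db/db against 239334, 253002 and 267318 CPM in db/+. The KO_db/db libraries stood apart in acinar RNA: the 46 listed acinar enzyme genes summed to 189513 CPM in KO_db/db mouse 1 and 16512 CPM in mouse 2, against 9.51, 332 and 83.6 CPM in db/+. KO_db/db mouse 1 exceeded mouse 2 by more than 4 times at 80 of the 2664 genes called higher and at 3 of the 2369 called lower, beside 200 of all 13180 members. Among the lean mice, counts of 4 Y-linked genes summed to 2911 in db/+ mouse 3 and to 31 and 79 in the others, beside 20 and 69 in KO_db/db. Of these genes, Ddx3y had 1018 counts in db/+ mouse 3, against 0 and 1 in the other lean mice and 2 and 2 in KO_db/db. Eif2s3y had 723 counts in db/+ mouse 3 and 0 in every other library. Only db/+ mouse 3 thus had clear Y-linked expression, so by these genes the groups were not matched for sex.

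Aldh1a3 (chr7:66390890-66427517, GRCm38) was at 4.61 and 7.31 CPM in KO_db/db against 0.189, 0.0674 and 0.544 CPM in db/+ (log2 fold change 4.44, SE 0.64, adjusted p = 0.0033). The targeted gene was thus higher in both libraries labelled KO_db/db than in any lean library, in which it was near 0, so this contrast does not check the deletion and the groups are named as labelled. Counts were summed over the gene and do not separate floxed exons from the others. Aldh1a3 had a log2 fold change of 5.53 without db/+ mouse 3. Lepr was barely detected, with 0 and 3 counts in KO_db/db and 3, 0 and 0 counts in db/+, and was not tested.

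Of the 13180 genes, 2664 were higher and 2369 were lower in KO_db/db. Over all 13228 tested genes 38.4% were called, 20.5% as higher and 17.9% as lower, and these shares are the background for the counts below. The median log2 fold change over all tested genes was -0.003. DESeq2 called 20.7% higher and 17.6% lower. Without KO_db/db mouse 1, edgeR called 12.8% of tested genes higher and 9.42% lower. Called genes with an absolute log2 fold change over 1 numbered 1225 higher and 611 lower. With 2 against 3 libraries an exact two-sided permutation test of a single value cannot go below p = 0.1, so single sums and ratios are given without a test. Every gene called lower, and 2660 of the genes called higher, had no overlap between the groups, as did 8430 of all 13180 members.

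Transcript length and GC content moved with the comparison. In the 10% of tested genes with the shortest transcripts (102 to 1228 bases), the median log2 fold change was -0.28, with 5.54% called higher and 26.6% lower. In the 10% with the longest transcripts (6755 to 123179 bases) it was 0.58, with 49.4% called higher and 9.01% lower. The 10% of genes with the lowest GC content had a median of -0.35 and the 10% with the highest a median of 0.36. Across 12987 genes with an annotated length, Spearman's rho with the log2 fold change was 0.27 for length and 0.26 for GC content, as a description of genes that share the same 5 libraries. Each KO_db/db library was shifted towards long transcripts (rho 0.25 and 0.27) and each db/+ library away from them (rho -0.26, -0.24 and -0.18). When this trend was removed in every library, 1976 members were higher and 2102 lower, and 1605 of the genes called higher and 1495 of those called lower kept their call and direction. Over all tested genes 15.3% were then called higher and 15.9% lower. A trend fitted by least squares over all genes, acinar enzymes included, gave 1644 higher and 2741 lower members, or 12.8% and 20.7% of all tested genes. This second version did not remove the trend from short transcripts. In the shortest 10% of transcripts its median log2 fold change was -0.28, against -0.02 in the first version. The part of the length trend in each difference was not tested, so calls that end without it are named below.

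**Figure D1:**
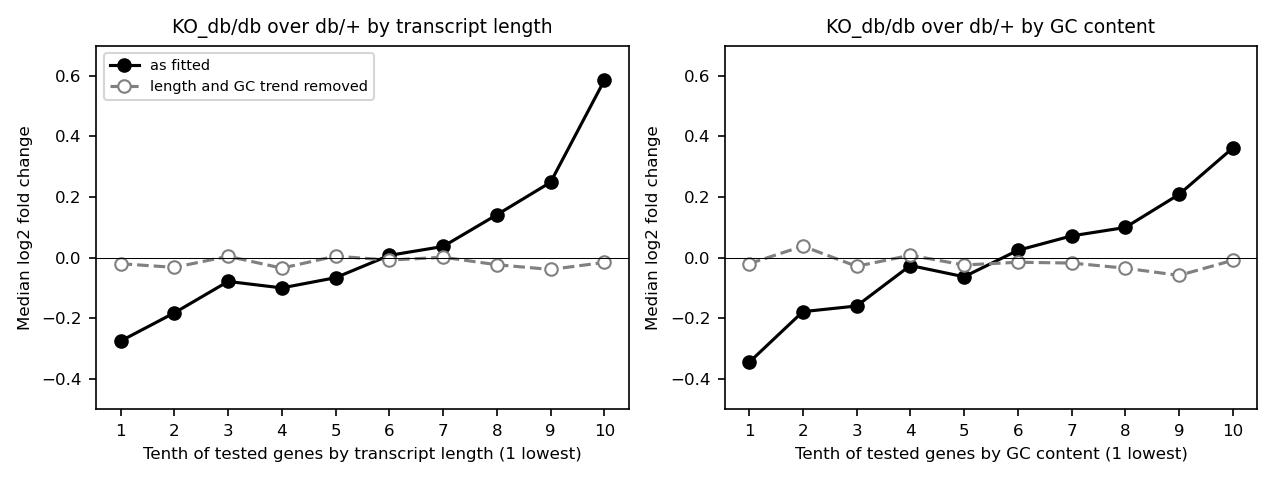
Median log2 fold change of KO_db/db over db/+ in 10 equal groups of tested genes ordered by transcript length (left) or GC content (right), as fitted (filled points) and with the length and GC trend removed (open points). The fitted medians climb from -0.28 to 0.58 with length and from -0.35 to 0.36 with GC content, and the open points stay near 0.

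The genes with the widest gaps between the groups included a cytolinker, chromatin enzymes and clock genes among those higher in KO_db/db. Outside the acinar, Reg and other cell type lists, 1762 called genes lay wholly above and 1675 wholly below the lean libraries at a mean of at least 10 CPM with the KO_db/db libraries within a factor of 2 of each other. Fam107b (chr2:3570488-3782142) led the rises, at 31.1 and 31.8 CPM in KO_db/db against 1.96, 1.65 and 2.40 CPM in db/+ (log2 fold change 3.97, SE 0.17, adjusted p = 0.00036). The VPS10-domain receptor gene Sorcs2 was at 16.2 and 29.7 CPM against 1.32, 1.45 and 1.5 CPM (log2 fold change 4.01, SE 0.28, adjusted p = 0.00064). The cell surface gene Tenm4, a teneurin, was at 33.1 and 26.9 CPM against 2.64, 2.29 and 3.39 CPM (log2 fold change 3.43, SE 0.19, adjusted p = 0.00060). In each of the 3 genes the lowest knockout value was several times the highest lean value. Dst, which encodes the cytoskeletal cross-linker dystonin, was at 328 and 346 CPM against 46.3, 42.8 and 46.6 CPM (log2 fold change 2.90, SE 0.10, adjusted p = 0.00024). The histone H3 lysine 4 methyltransferase gene Kmt2a was at 77.4 and 68.3 CPM against 10.5, 10.3 and 13.7 CPM, and the histone H3 lysine 27 demethylase gene Kdm6b at 99.8 and 108 CPM against 12.2, 13.7 and 20.6 CPM. Their log2 fold changes were 2.66 (adjusted p = 0.00060) and 2.74 (adjusted p = 0.00069). The remaining leading rises were Nr1d1, Per1, Hivep1, Sptb, Uaca and Golga4, with log2 fold changes from 2.48 to 2.82. The leading rises had a median transcript length of 7119 bases, against 3150 bases over all members tested, and all 12 kept their calls with the length and GC trend removed. The trend-free log2 fold change was 3.34 for Sorcs2, 2.31 for Tenm4, 1.54 for Dst, 1.49 for Kmt2a, 1.85 for Kdm6b, 2.18 for Per1, 1.84 for Hivep1, 1.62 for Sptb and 1.93 for Golga4, with the call kept.

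Among the leading falls were a mitochondrial, a sugar-transferase and an ion channel gene. Rsrp1, a gene for an arginine- and serine-rich protein, was at 4.46 and 6.53 CPM in KO_db/db against 63.5, 63.5 and 140.3 CPM in db/+ (log2 fold change -4.00, SE 0.45, adjusted p = 0.0016). Cox6a2, an isoform of a cytochrome c oxidase subunit that is typical of muscle, was at 5.07 and 4.05 CPM against 72.5, 42.9 and 82.1 CPM (log2 fold change -3.86, SE 0.32, adjusted p = 0.00076). Ogt, whose enzyme adds O-linked N-acetylglucosamine to proteins, was at 5.48 and 4.84 CPM against 89.1, 67.3 and 40.8 CPM (log2 fold change -3.68, SE 0.35, adjusted p = 0.0010). In these 3 genes the lean mice varied by about 2 times among themselves and still lay far above both knockout mice. The neuronal membrane protein gene Slitrk6 was at 21.0 and 19.8 CPM against 119, 112 and 104 CPM (log2 fold change -2.45, SE 0.10, adjusted p = 0.00036). Trpm5 (chr7:143069153-143094642), a calcium-activated cation channel of the β-cell membrane, was at 29.5 and 18.6 CPM against 128, 106 and 116 CPM (log2 fold change -2.29, SE 0.21, adjusted p = 0.00092). Cited2, a co-regulator that binds CBP and p300, was at 10.8 and 12.2 CPM against 55.0, 43.9 and 59.8 CPM (log2 fold change -2.20, SE 0.16, adjusted p = 0.00069). The others were Anks4b, Cdh7, Zc3h10, Chordc1, Zfyve16 and Lgalsl, with log2 fold changes from -2.70 to -1.84. All 12 kept their calls with the length and GC trend removed, and the median transcript length of these genes was 4012 bases.

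**Figure D2:**
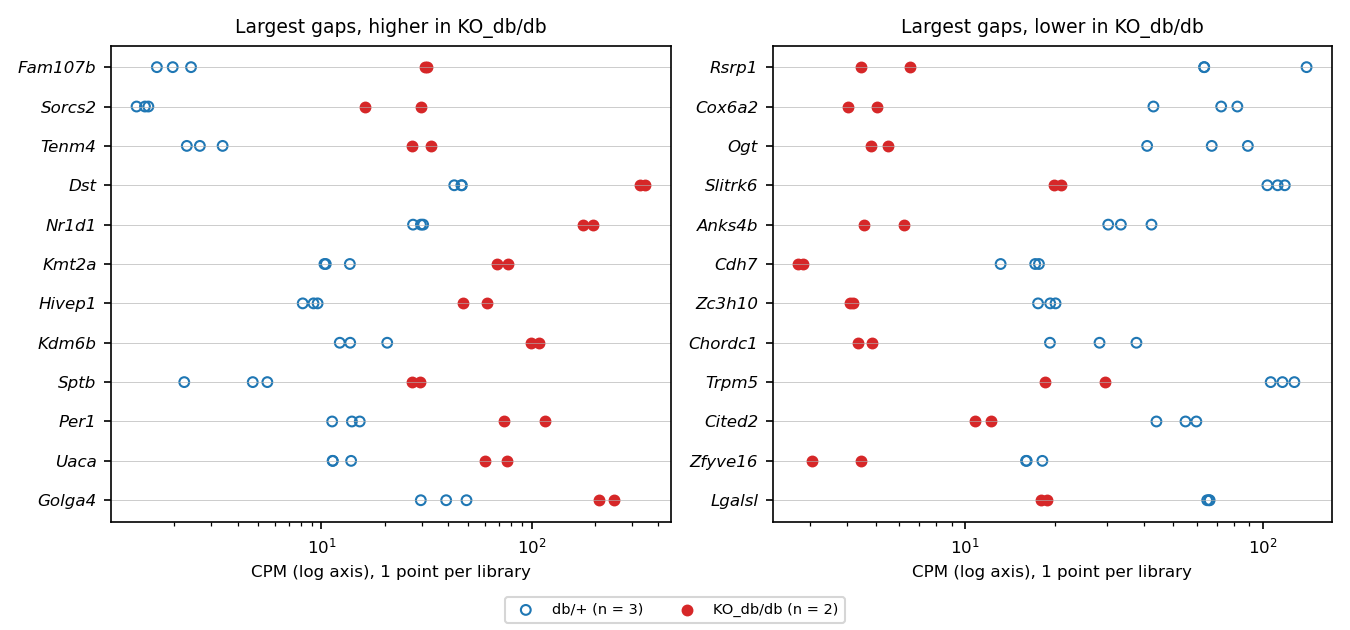
CPM of the 12 genes with the widest gap above (left) and below (right) the lean libraries, on a log axis, with 1 point per library (filled red, 2 KO_db/db libraries; open blue, 3 db/+ libraries). In every gene shown the groups are apart, as required for inclusion. Nr1d1, for example, is at 196 and 176 CPM in KO_db/db with all lean values at or under 30.5 CPM.

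Among β-cell transcription factors, 3 homeodomain genes were lower and Mlxipl and Glis3 were among 8 genes higher in KO_db/db. Of this list, 8 of 24 tested members were higher, 3 were lower and 13 were not called, with a median log2 fold change of -0.01. Nkx6-1, which maintains β-cell identity, was at 198 and 196 CPM in KO_db/db against 411, 334 and 322 CPM in db/+ (log2 fold change -0.85, SE 0.15, adjusted p = 0.0059). Pdx1, an activator of the insulin genes, was at 107 and 117 CPM against 152, 165 and 182 CPM (log2 fold change -0.57, SE 0.11, adjusted p = 0.010). The LIM-homeodomain gene Isl1 was at 53.1 and 43.8 CPM against 70.0, 77.5 and 66.4 CPM (log2 fold change -0.56, SE 0.12, adjusted p = 0.013). In all 3 the knockout mice lay below every lean mouse, as the rule for naming these genes required. Mafa, a late maturity factor, was at 357 and 353 CPM against 382, 302 and 390.2 CPM and overlapped (log2 fold change -0.01, adjusted p = 0.96). Neurod1, Pax6 and Nkx2-2 were not called either, with log2 fold changes of -0.23, -0.08 and 0.04. Of the higher genes, Mlxipl, which encodes the glucose-responsive factor ChREBP, was at 161 and 133 CPM against 47.6, 61.2 and 59.6 CPM (log2 fold change 1.39, SE 0.14, adjusted p = 0.0012). Glis3, a zinc finger activator of the insulin genes, was at 156 and 82.0 CPM against 36.3, 40.7 and 50.3 CPM (log2 fold change 1.48, SE 0.27, adjusted p = 0.0068). Removal of the length and GC trend gave 6 higher and 6 lower, and removal of KO_db/db mouse 1 gave 6 and 2. Without that trend Mafa moved to -0.53 (adjusted p = 0.030). In edgeR fits that left out 1 library, the call ended for Pdx1 without KO_db/db mouse 1 (highest adjusted p = 0.068), and Isl1 without KO_db/db mouse 2 (highest adjusted p = 0.054). Once that trend was removed, Isl1 did not keep its call (adjusted p = 0.14). Removing the length and GC trend moved the log2 fold change to 0.88 for Glis3.

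Ins1, Ucn3 and processing genes such as Pcsk1 were lower in KO_db/db, while 4 granin genes were higher. Of the genes for insulin and its processing, 5 of 22 tested members were higher, 6 were lower and 11 were not called, with a median log2 fold change of 0.01. Ins1 was at 68270.0 and 49015 CPM in KO_db/db against 102561, 95872 and 114728 CPM in db/+ (log2 fold change -0.83, SE 0.23, adjusted p = 0.027). Ins2 did not pass the threshold (log2 fold change -0.63, SE 0.21, adjusted p = 0.052), although both knockout values lay below all lean values. The insulin genes are near-identical in part, so estimated counts could be split between them. Fewer cells of a type and less RNA per cell cannot be told apart in these bulk samples. Ucn3, a peptide gene that marks mature β-cells, was at 262 and 230.4 CPM against 538, 519.8 and 536 CPM (log2 fold change -1.11, SE 0.13, adjusted p = 0.0018). Ero1b, a disulfide-forming oxidase of the endoplasmic reticulum, was at 1047 and 1155 CPM against 2118, 1753 and 2275 CPM (log2 fold change -0.90, SE 0.19, adjusted p = 0.012). The prohormone convertase gene Pcsk1 and the granule zinc transporter gene Slc30a8 were also lower (log2 fold changes -0.81 and -0.78, adjusted p = 0.018 and 0.010). The neuropeptide gene Npy varied widely among the lean mice, at 0.457 and 0.225 CPM against 19.8, 8.19 and 2.30 CPM (log2 fold change -4.95, SE 1.05, adjusted p = 0.012). Iapp, the amylin gene, and Pcsk2 overlapped between groups, with log2 fold changes of -0.07 and 0.01. The granin gene Chgb was at 1865 and 3074 CPM against 973, 765 and 952 CPM (log2 fold change 1.46, SE 0.25, adjusted p = 0.0059), and Scg3 at 2239 and 2329.8 CPM against 1050.0, 1028 and 1166 CPM (log2 fold change 1.08, SE 0.16, adjusted p = 0.0037). Ptprn2, a granule membrane phosphatase-like protein, was at 1093 and 959 CPM against 409, 486 and 559 CPM (log2 fold change 1.08, SE 0.18, adjusted p = 0.0053). Chga and Scg2 completed the higher genes, with log2 fold changes of 0.72 and 0.67 (adjusted p = 0.022 and 0.037). With 1 library left out, the edgeR call ended for Ins1, Chga and Scg2 without KO_db/db mouse 2, db/+ mouse 1 or db/+ mouse 2 (highest adjusted p from 0.14 to 0.27), Ero1b and Slc30a8 without KO_db/db mouse 2 (highest adjusted p from 0.052 to 0.053), and Pcsk1 without KO_db/db mouse 1, KO_db/db mouse 2 or db/+ mouse 1 (highest adjusted p = 0.066). It also ended for Npy without KO_db/db mouse 1 or KO_db/db mouse 2 (highest adjusted p = 0.068). Ins1, Slc30a8 and Chga did not, without the length and GC trend, keep their calls (adjusted p from 0.068 to 0.21). Npy had a log2 fold change of -3.99 without db/+ mouse 1.

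Slc2a2 and G6pc2 were lower in KO_db/db, while 16 channel and sensing genes were higher. Of the glucose sensing and ion channel genes, 16 of 37 tested members were higher, 4 were lower and 17 were not called, with a median log2 fold change of 0.33. Slc2a2 (chr3:28697903-28731359), the glucose transporter GLUT2, was at 347 and 213 CPM in KO_db/db against 1112, 981 and 1067 CPM in db/+ (log2 fold change -1.91, SE 0.24, adjusted p = 0.0022). G6pc2, the islet glucose-6-phosphatase subunit, was at 1634 and 648 CPM against 3071, 2851 and 3028 CPM (log2 fold change -1.39, SE 0.38, adjusted p = 0.029). Both knockout mice were below every lean mouse in each gene, as the rule for naming required. In G6pc2 the knockout mice differed from each other by 2.5 times. Gjd2, which encodes the gap junction protein connexin 36, was at 133 and 127 CPM against 301, 305 and 212 CPM (log2 fold change -1.07, SE 0.18, adjusted p = 0.0054), and with Trpm5 it completed the 4 lower genes. The higher genes included Itpr3, an inositol trisphosphate receptor, at 128 and 106 CPM against 40.8, 39.5 and 44.4 CPM (log2 fold change 1.49, SE 0.11, adjusted p = 0.00066). The calcium channel gene Cacna1a was at 28.1 and 30.6 CPM against 12.3, 9.90 and 13.6 CPM (log2 fold change 1.30, SE 0.15, adjusted p = 0.0017). The KATP channel genes Abcc8 and Kcnj11 were higher by smaller amounts (log2 fold changes 0.51 and 0.33, adjusted p = 0.030 and 0.026). Transcripts of this list were long, with a median of 4606 bases, and 6 members were higher and 6 lower without the length and GC trend, with a median of -0.06. Among edgeR fits on 4 libraries, the call ended for G6pc2 without KO_db/db mouse 2, db/+ mouse 1, db/+ mouse 2 or db/+ mouse 3 (highest adjusted p = 0.073), Abcc8 without KO_db/db mouse 1, KO_db/db mouse 2, db/+ mouse 1 or db/+ mouse 2 (highest adjusted p = 0.11), and Kcnj11 without any 1 of the 5 libraries (highest adjusted p = 0.13). After removal of the length and GC trend, G6pc2, Cacna1a, Abcc8 and Kcnj11 did not keep their calls (adjusted p from 0.11 to 0.79), and Abcc8 had a log2 fold change of -0.06. With that trend removed, the log2 fold change was 0.42 for Itpr3. For G6pc2 the log2 fold change was -2.20 without KO_db/db mouse 1.

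**Figure D3:**
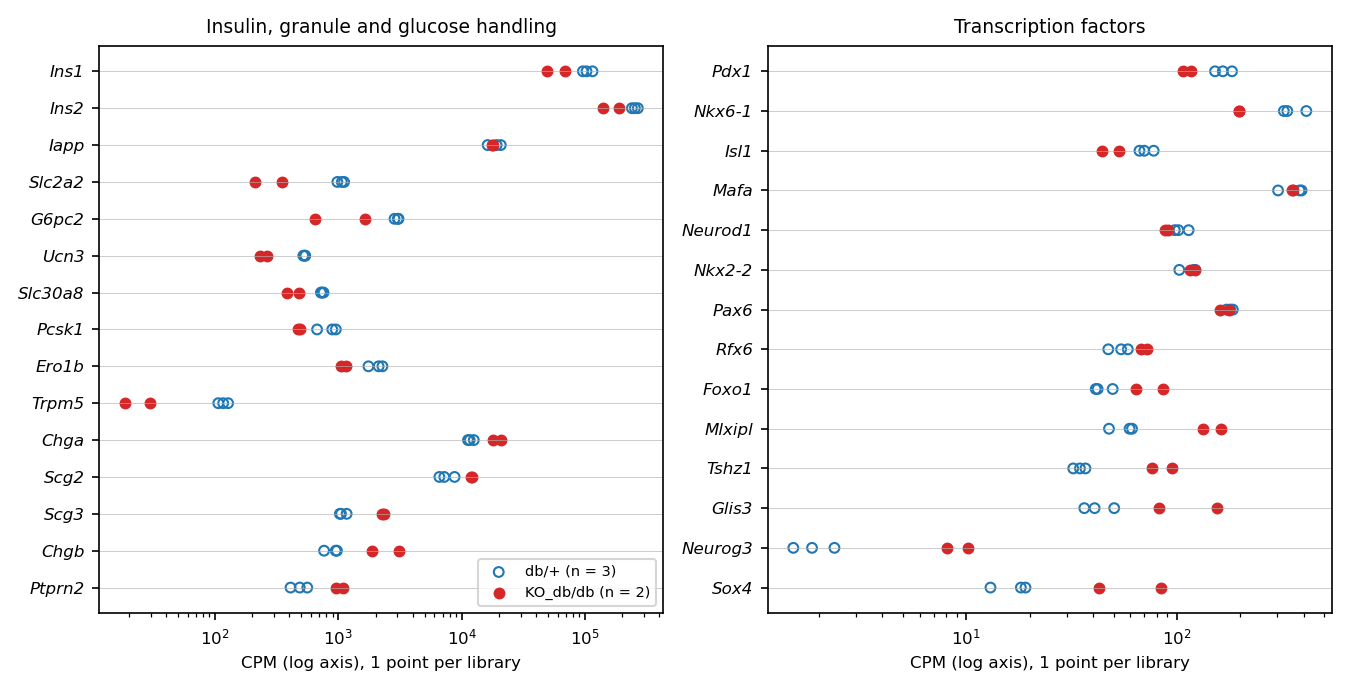
CPM per library, on a log axis, of insulin, granule and glucose-handling genes (left) and of transcription factors (right), with filled red points for the 2 KO_db/db and open blue points for the 3 db/+ libraries. Slc2a2, G6pc2, Ucn3, Trpm5, Pdx1 and Nkx6-1 lie to the left in KO_db/db, the granins, Mlxipl and Neurog3 to the right, and Iapp, Mafa and Pax6 overlap.

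The receptor genes Gipr, Adra2a and Gpr119 were lower and the insulin and IGF signalling genes Irs2 and Igf1r were higher. Of the hormone and nutrient receptors, 6 of 31 tested members were higher, 11 were lower and 14 were not called, with a median log2 fold change of -0.08. Gipr, the receptor of the incretin GIP, was at 7.2 and 9.27 CPM in KO_db/db against 24.9, 22.8 and 20.6 CPM in db/+ (log2 fold change -1.46, SE 0.16, adjusted p = 0.0014). Adra2a, the α2-adrenergic receptor that inhibits insulin release, was at 59.5 and 63.3 CPM against 141, 121 and 146 CPM (log2 fold change -1.15, SE 0.11, adjusted p = 0.0011). Gpr119, a receptor for lipid amides, was at 8.76 and 7.97 CPM against 16.1, 18.3 and 14.5 CPM (log2 fold change -0.96, SE 0.15, adjusted p = 0.0043). The GLP-1 receptor gene Glp1r was not called (log2 fold change -0.18, adjusted p = 0.40). Irs2, an adaptor of the insulin receptor, was at 70.6 and 42.8 CPM against 14.1, 14.3 and 20.6 CPM (log2 fold change 1.79, SE 0.25, adjusted p = 0.0030). Igf1r was at 68.6 and 72.7 CPM against 26.1, 25.2 and 23.8 CPM (log2 fold change 1.5, SE 0.09, adjusted p = 0.00060), and the natriuretic peptide receptor gene Npr2 at 16.8 and 13.0 CPM against 7.66, 8.08 and 6.40 CPM (log2 fold change 1.01, SE 0.17, adjusted p = 0.0060). In this list 4 and 11 were called higher and lower with the length and GC trend removed, and 5 and 8 without KO_db/db mouse 1. The trend-free log2 fold change was -1.76 for Adra2a, 1.03 for Irs2 and 0.61 for Igf1r, with the call kept.

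Prolactin and growth hormone act on β-cells through JAK2 and STAT5, whose targets include Cish, Socs2 and the serotonin pathway. Of the serotonin and JAK-STAT genes, 4 of 19 tested members were higher, 6 were lower and 9 were not called, with a median log2 fold change of 0.13. Cish, a feedback inhibitor of STAT5, was at 2.06 and 0.968 CPM in KO_db/db against 12.2, 35.4 and 9.76 CPM in db/+ (log2 fold change -3.71, SE 0.71, adjusted p = 0.0084). Socs2, a second feedback inhibitor, was at 7.46 and 4.55 CPM against 26.0, 36.8 and 12 CPM (log2 fold change -2.07, SE 0.48, adjusted p = 0.017). Both were lower in each knockout mouse than in any lean mouse, as the rule for naming required, while the lean mice spread over 3 times. The prolactin receptor gene Prlr was lower (log2 fold change -0.85, adjusted p = 0.0039) and the growth hormone receptor gene Ghr was not called (log2 fold change -0.11, adjusted p = 0.40). Maob, a monoamine oxidase, was at 89.2 and 101 CPM against 192, 185 and 184 CPM (log2 fold change -0.97, SE 0.10, adjusted p = 0.0013). Jak2 was higher, at 33.7 and 31.0 CPM against 16.3, 17.8 and 19.3 CPM (log2 fold change 0.86, SE 0.11, adjusted p = 0.0024), as was the JAK-directed phosphatase gene Ptpn1 (log2 fold change 0.83, adjusted p = 0.0012). Stat3 was higher by 0.53 on the log2 scale (adjusted p = 0.022). Removal of 1 library ended the edgeR call for Socs2 without KO_db/db mouse 2 (highest adjusted p = 0.082), and Stat3 without KO_db/db mouse 1, KO_db/db mouse 2 or db/+ mouse 2 (highest adjusted p = 0.11). Without the length and GC trend, Stat3 did not keep its call (adjusted p = 0.99). Cish had a log2 fold change of -4.30 without KO_db/db mouse 1 and -2.89 without db/+ mouse 2.

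The machinery that docks and fuses granules was split. Of the granule exocytosis genes, 10 of 37 tested members were higher, 7 were lower and 20 were not called, with a median log2 fold change of 0.11. These counts became 7 and 7 without the length and GC trend, and 6 and 4 without KO_db/db mouse 1. Sytl4, which encodes the granule docking protein granuphilin, was at 145 and 116 CPM in KO_db/db against 353, 309.6 and 259 CPM in db/+ (log2 fold change -1.24, SE 0.18, adjusted p = 0.0031). Vamp3, a vesicle SNARE, was at 28.9 and 28.6 CPM against 56.3, 51.8 and 46.7 CPM (log2 fold change -0.84, SE 0.11, adjusted p = 0.0024), and Syt11 was lower by a log2 fold change of -0.63 (adjusted p = 0.023). Rims2, an active zone scaffold, was higher at 44.8 and 51.4 CPM against 20.3, 21.4 and 25.6 CPM (log2 fold change 1.10, SE 0.13, adjusted p = 0.0018). Unc13a, a priming factor, and Snph, syntaphilin, were also higher (log2 fold changes 1.14 and 1.05, adjusted p = 0.019 and 0.0020). The edgeR call ended, with 1 library left out, for Syt11 without KO_db/db mouse 1 or db/+ mouse 1 (highest adjusted p = 0.11), and Unc13a without KO_db/db mouse 1, db/+ mouse 1 or db/+ mouse 2 (highest adjusted p = 0.11). With the length and GC trend removed, Unc13a did not keep its call (adjusted p = 0.73). Removing the length and GC trend moved the log2 fold change to 0.42 for Snph.

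Progenitor genes such as Neurog3 and Sox4 were higher in KO_db/db than in lean mice. Of the dedifferentiation and progenitor genes, 11 of 22 tested members were higher, 1 was lower and 10 were not called, with a median log2 fold change of 1.29. Neurog3, the factor that specifies endocrine progenitors, was at 10.2 and 8.12 CPM in KO_db/db against 1.51, 1.85 and 2.37 CPM in db/+ (log2 fold change 2.25, SE 0.25, adjusted p = 0.0014). Sox4, a factor of endocrine development, was at 83.7 and 42.7 CPM against 13.0, 18.2 and 19.1 CPM (log2 fold change 1.91, SE 0.29, adjusted p = 0.0041). Gc, which encodes vitamin D binding protein and is also expressed in α-cells, was at 275 and 189 CPM against 57.2, 66.0 and 118 CPM (log2 fold change 1.53, SE 0.32, adjusted p = 0.011). The thyroxine-binding globulin gene Serpina7 was at 64.1 and 35.4 CPM against 14.5, 16.5 and 26.9 CPM (log2 fold change 1.36, SE 0.33, adjusted p = 0.018). In these 4 genes both knockout mice exceeded every lean mouse, which the rule for naming required of Sox4, Gc and Serpina7. In all 4 mouse 1 was the higher of the pair. Tnfrsf11b, osteoprotegerin, was the only member lower (log2 fold change -0.84, adjusted p = 0.038). The list overlaps with others, since it holds Aldh1a3 itself, and in it 9 and 1 were called higher and lower with the length and GC trend removed, and 4 and 0 (2 at an unadjusted p under 0.05) without KO_db/db mouse 1. In edgeR fits that left out 1 library, the call ended for Gc without KO_db/db mouse 1 (highest adjusted p = 0.064), Serpina7 without KO_db/db mouse 1, db/+ mouse 1 or db/+ mouse 2 (highest adjusted p = 0.11), and Tnfrsf11b without KO_db/db mouse 1, KO_db/db mouse 2, db/+ mouse 1 or db/+ mouse 3 (highest adjusted p = 0.14). Once that trend was removed, Tnfrsf11b did not keep its call (adjusted p = 0.23). With that trend removed, the log2 fold change was 1.97 for Serpina7.

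Genes that β-cells normally keep silent had a positive median log2 fold change in KO_db/db. Their summed level was 87.5 and 49.9 CPM in KO_db/db against 40.8, 34.4 and 34.0 CPM in db/+. Of the disallowed genes, 8 of 19 tested members were higher, 0 were lower (0 at an unadjusted p under 0.05, 0 by DESeq2) and 11 were not called, with a median log2 fold change of 1.54. All 19 had a positive log2 fold change. Genes near 0 in the lean libraries, such as Ldha, could pass the low-count filter through the knockout libraries and could hardly be called lower. The median was 1.28 without KO_db/db mouse 1, in a fit with 1 knockout library. Without KO_db/db mouse 1, in which acinar RNA was highest, edgeR called 0 higher (3 at an unadjusted p under 0.05) and 0 lower (0). The lactate dehydrogenase gene Ldha was at 9.48 and 0.473 CPM in KO_db/db against 0.302, 0.0337 and 0.0320 CPM in db/+ (log2 fold change 5.35, SE 1.37, adjusted p = 0.022), so that mouse 2 lay close to db/+ mouse 1. Pdk4, an inhibitor of pyruvate dehydrogenase, was at 5.52 and 0.878 CPM against 0.0755, 0.640 and 0.0960 CPM, and Ndrg2 at 5.56 and 0.788 CPM against 0.340, 0.438 and 0.192 CPM. Zyx, the focal adhesion gene zyxin, was more even, at 10.1 and 7.94 CPM against 2.34, 2.53 and 4.41 CPM (log2 fold change 1.54, SE 0.31, adjusted p = 0.0096). No member of this list reached a mean of 10 CPM with a call, so these examples were chosen after their values were seen. The part of acinar RNA in these rises was not tested. With 1 library left out, the edgeR call ended for Ldha without KO_db/db mouse 1, db/+ mouse 2 or db/+ mouse 3 (highest adjusted p = 0.34), Pdk4 without KO_db/db mouse 1, db/+ mouse 1 or db/+ mouse 3 (highest adjusted p = 0.35), and Ndrg2 without KO_db/db mouse 1, db/+ mouse 1, db/+ mouse 2 or db/+ mouse 3 (highest adjusted p = 0.30). It also ended for Zyx without KO_db/db mouse 1 (highest adjusted p = 0.056). Ldha had a log2 fold change of 1.95 without KO_db/db mouse 1, 6.28 without KO_db/db mouse 2 and 7.07 without db/+ mouse 1.

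**Figure D4:**
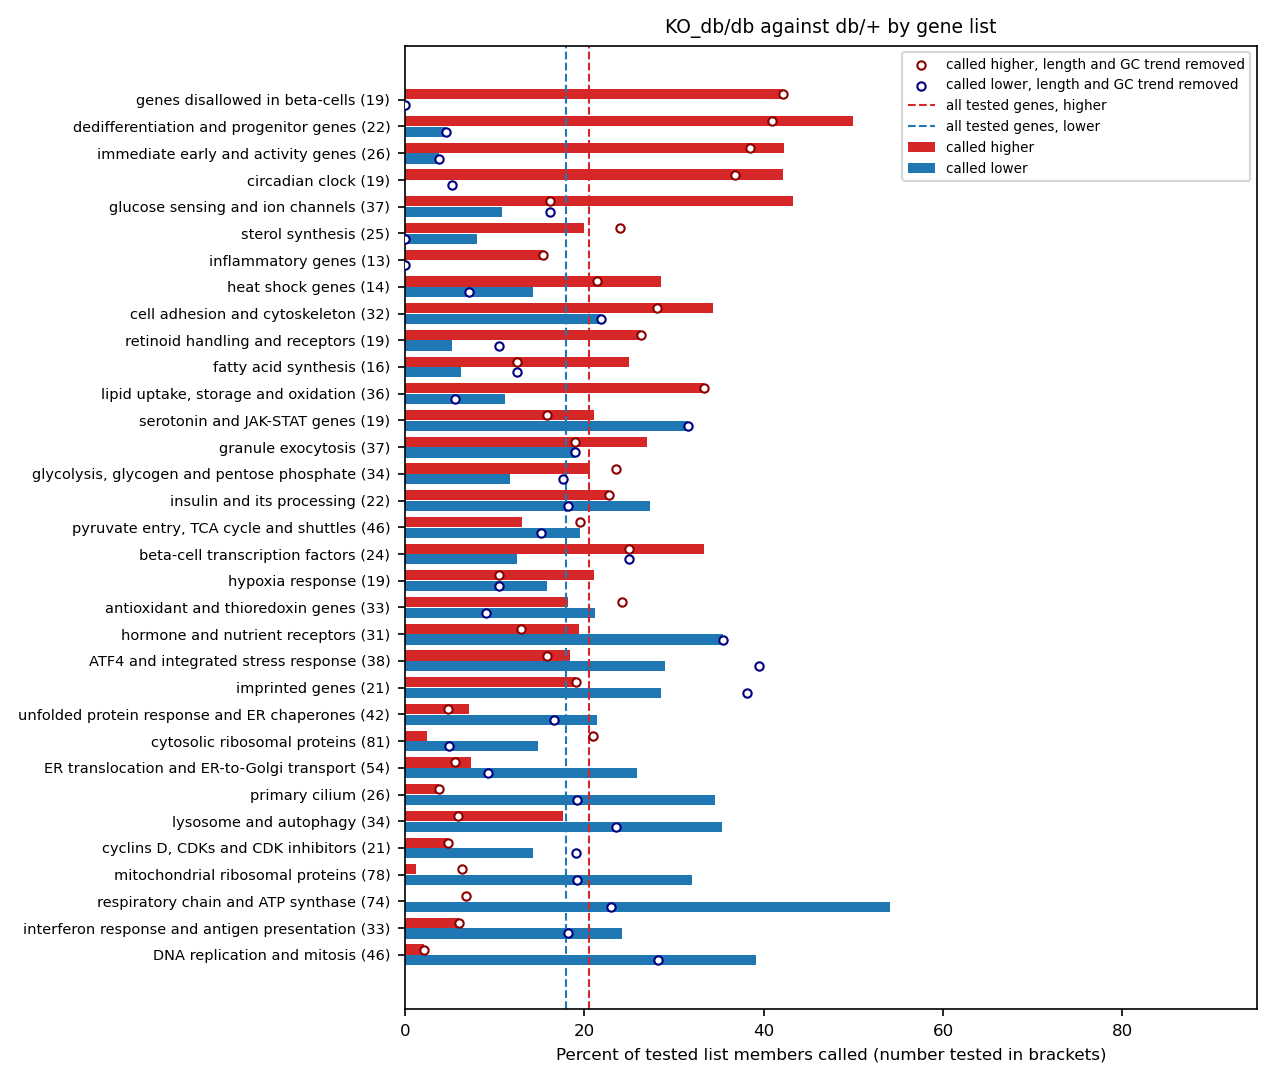
Percent of the tested members of each gene list called higher (red bars) or lower (blue bars) in KO_db/db, ordered by median log2 fold change, with open circles for the same shares with the length and GC trend removed and dashed lines at the shares over all tested genes (20.5% higher, 17.9% lower). Progenitor, disallowed, immediate early and clock genes are among the lists right of the red line in both analyses. The lower calls of the respiratory chain go from 40 (bar) to 17 (circle) of 74 genes. The lines are shares before the trend was removed, and afterwards 15.3% of all tested genes were higher and 15.9% lower.

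Atf4 itself and several genes of amino acid supply and tRNA charging that it controls were lower. ATF4 is translated when eIF2α is phosphorylated and induces amino acid synthesis, uptake and tRNA charging. Of the ATF4 and integrated stress response genes, 7 of 38 tested members were higher, 11 were lower and 20 were not called, with a median log2 fold change of -0.14. Atf4 was at 73.4 and 94.3 CPM in KO_db/db against 216, 242 and 225 CPM in db/+ (log2 fold change -1.44, SE 0.14, adjusted p = 0.0010). Cebpg, its dimer partner, was at 15.6 and 21.5 CPM against 59.9, 73.1 and 48.4 CPM (log2 fold change -1.70, SE 0.22, adjusted p = 0.0022). Mthfd2, a mitochondrial folate enzyme, was at 16.9 and 21.4 CPM against 43.2, 62.9 and 50.7 CPM (log2 fold change -1.44, SE 0.19, adjusted p = 0.0025). In all 3 the knockout values were below each lean value by 2 times or more. The tRNA synthetase genes Iars and Yars and the related factor Atf5 were lower too (log2 fold changes -1.12, -0.82 and -0.95, adjusted p = 0.0024, 0.0038 and 0.0028). Ppp1r15a, which encodes the phosphatase subunit that reverses eIF2α phosphorylation, was higher at 57.9 and 56.3 CPM against 20.8, 17.7 and 24.3 CPM (log2 fold change 1.45, SE 0.14, adjusted p = 0.0010). Nupr1 and Ddit4 were higher with uneven knockout mice, Nupr1 at 119 and 40.3 CPM against 23.8, 22.8 and 24.5 CPM and Ddit4 at 73.2 and 30.0 CPM against 16.6, 17.2 and 21.8 CPM (log2 fold changes 1.75 and 1.47, adjusted p = 0.014 and 0.017). The stress factor gene Ddit3 overlapped, at 4.57 and 13.4 CPM against 14.8, 17.1 and 13.8 CPM (adjusted p = 0.18). In this list 6 and 15 were called higher and lower with the length and GC trend removed, and 4 and 10 without KO_db/db mouse 1. Among edgeR fits on 4 libraries, the call ended for Nupr1 without db/+ mouse 2 (highest adjusted p = 0.051), and Ddit4 without db/+ mouse 1 or db/+ mouse 2 (highest adjusted p = 0.058). For Nupr1 the log2 fold change was 0.76 without KO_db/db mouse 1. Ddit4 had a log2 fold change of 0.69 without KO_db/db mouse 1.

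Of the unfolded protein response, Hsp90b1 and Sel1l were higher and Dnajb9 and Derl2 lower. Of these chaperones and sensors, 3 of 42 tested members were higher, 9 were lower and 30 were not called, with a median log2 fold change of -0.16. In the fit without KO_db/db mouse 1 the counts were 1 higher and 2 lower, and without the length and GC trend 2 and 7. Sel1l, a subunit of the ubiquitin ligase of ER-associated degradation, was at 232 and 195 CPM in KO_db/db against 125, 122 and 131 CPM in db/+ (log2 fold change 0.76, SE 0.11, adjusted p = 0.0033). Hsp90b1, which encodes the chaperone GRP94, was at 988 and 1037 CPM against 651, 558 and 759 CPM (log2 fold change 0.63, SE 0.18, adjusted p = 0.031). Atf6, a sensor of unfolded proteins, was higher by 0.45 on the log2 scale (adjusted p = 0.033). The co-chaperone gene Dnajb9 was at 199 and 215 CPM against 467, 275 and 424 CPM (log2 fold change -0.91, SE 0.23, adjusted p = 0.022) and Derl2, a degradation channel component, at 47.1 and 52.0 CPM against 86.4, 79.3 and 84.3 CPM (log2 fold change -0.75, SE 0.09, adjusted p = 0.0021). Of the genes for ER translocation and ER-to-Golgi transport, 4 of 54 tested members were higher, 14 were lower and 36 were not called, with a median log2 fold change of -0.20. Higher and lower members numbered 3 and 5 without the length and GC trend, and 2 and 6 without KO_db/db mouse 1. Ssr4, a translocon-associated subunit, was at 141 and 144 CPM against 280.1, 226 and 318 CPM (log2 fold change -0.95, SE 0.16, adjusted p = 0.0056). Srp68, a subunit of the signal recognition particle, was higher at 105 and 101 CPM against 65.3, 62.8 and 72.3 CPM (log2 fold change 0.62, SE 0.09, adjusted p = 0.0039). When the trend was fitted by least squares, the second list had 2 higher and 12 lower members. Removal of 1 library ended the edgeR call for Hsp90b1 and Atf6 without KO_db/db mouse 1, KO_db/db mouse 2, db/+ mouse 1 or db/+ mouse 2 (highest adjusted p from 0.12 to 0.17), and Dnajb9 without KO_db/db mouse 1, KO_db/db mouse 2, db/+ mouse 1 or db/+ mouse 3 (highest adjusted p = 0.11). Atf6 and Dnajb9 did not, without the length and GC trend, keep their calls (adjusted p from 0.23 to 0.75).

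Cytosolic heat shock genes were called in both directions. Of this list, 4 of 14 tested members were higher, 2 were lower and 8 were not called, with a median log2 fold change of 0.26. Removal of the length and GC trend gave 3 higher and 1 lower, and removal of KO_db/db mouse 1 gave 4 and 0 (1 at an unadjusted p under 0.05). Bag3, a co-chaperone, was at 20.5 and 23.3 CPM in KO_db/db against 13.4, 12.5 and 11.2 CPM in db/+ (log2 fold change 0.83, SE 0.13, adjusted p = 0.0042), and the HSP90 genes Hsp90ab1 and Hsp90aa1 were higher by 0.50 and 0.34 on the log2 scale (adjusted p = 0.029 and 0.044). Hsph1, an HSP110 chaperone, was at 22.2 and 22.3 CPM against 63.2, 49.1 and 27.5 CPM (log2 fold change -1.06, SE 0.32, adjusted p = 0.039), with the lowest lean value close to the knockout values. Of the antioxidant and thioredoxin genes, 6 of 33 tested members were higher, 7 were lower and 20 were not called, with a median log2 fold change of -0.06. These counts became 8 and 3 without the length and GC trend, and 1 and 6 without KO_db/db mouse 1. Gpx3, a secreted glutathione peroxidase, was at 125 and 107 CPM against 311, 279.8 and 178 CPM (log2 fold change -1.15, SE 0.24, adjusted p = 0.012). The peroxiredoxin gene Prdx4 was higher and Prdx3 lower (log2 fold changes 0.47 and -0.81, adjusted p = 0.013 and 0.0061). Of the hypoxia response genes, 4 of 19 tested members were higher, 3 were lower and 12 were not called, with a median log2 fold change of -0.02. In the fit without KO_db/db mouse 1 the counts were 1 higher and 0 (3 at an unadjusted p under 0.05) lower, and without the length and GC trend 2 and 2. The edgeR call ended, with 1 library left out, for Hsp90ab1 without KO_db/db mouse 2, db/+ mouse 1, db/+ mouse 2 or db/+ mouse 3 (highest adjusted p = 0.13), Hsp90aa1 without any 1 of the 5 libraries (highest adjusted p = 0.18), and Hsph1 without KO_db/db mouse 1, KO_db/db mouse 2, db/+ mouse 1 or db/+ mouse 2 (highest adjusted p = 0.14). It also ended for Gpx3 without KO_db/db mouse 2 (highest adjusted p = 0.056), and Prdx4 without KO_db/db mouse 1 or db/+ mouse 1 (highest adjusted p = 0.063). After removal of the length and GC trend, Prdx3 did not keep its call (adjusted p = 0.13).

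Nuclear genes of oxidative phosphorylation were called lower more often than the background of 17.9%, in a number that changed with the length and GC trend. Complexes I to IV pass electrons to oxygen and ATP synthase uses the resulting proton gradient. Of these genes, 0 of 74 tested members were higher by edgeR (2 at an unadjusted p under 0.05, 0 by DESeq2), 40 were lower and 34 were not called, with a median log2 fold change of -0.36. The ATP synthase subunit gene Atp5e was at 38.3 and 38.0 CPM in KO_db/db against 72.3, 79.0 and 75.0 CPM in db/+ (log2 fold change -0.98, SE 0.09, adjusted p = 0.00084). A second subunit gene, Atp5k, was at 18.0 and 17.3 CPM against 34.3, 30.9 and 34.6 CPM (log2 fold change -0.92, SE 0.11, adjusted p = 0.0016), and Ndufa1 of complex I at 37.1 and 44.2 CPM against 70.9, 70.1 and 82.1 CPM (log2 fold change -0.87, SE 0.12, adjusted p = 0.0030). In all 3 both knockout values lay below every lean value, as the rule for naming these genes required. Transcripts of the list had a median of 870.0 bases, and with the length and GC trend removed 5 members were higher and 17 lower, with a median of -0.11. The least squares version, which did not remove the trend from short transcripts, left 34 lower. Atp5e and Atp5k kept their calls, at -0.75 (adjusted p = 0.0025) and -0.65 (adjusted p = 0.0078). Without KO_db/db mouse 1, 28 were lower. Without the length and GC trend, Ndufa1 did not keep its call (adjusted p = 0.066).

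Cytosolic ribosomal protein genes were more often called lower than higher as fitted, and more often higher with the length and GC trend removed. Mitochondrial ones had more members called lower in both cases. The least squares version left the trend in short transcripts and cannot decide the direction of either list without it. Its median log2 fold change was -0.28 in transcripts of 102 to 1228 bases and -0.22 in those of 1230 to 1749 bases. These medians were -0.28 and -0.18 as fitted, and -0.02 and -0.03 in the first version. The lists had median lengths of 906 and 1327.5 bases, respectively. Of the cytosolic ribosomal proteins, 2 of 81 tested members were higher, 12 were lower and 67 were not called, with a median log2 fold change of -0.19, while 17 were higher and 4 lower with the length and GC trend removed, and 1 and 12 under the least squares version. They numbered 1 higher and 2 lower without KO_db/db mouse 1. Rplp1, of the ribosomal stalk, was at 251 and 204 CPM in KO_db/db against 425, 445 and 401 CPM in db/+ (log2 fold change -0.90, SE 0.14, adjusted p = 0.0046) and Rpl4 at 808 and 853 CPM against 569.6, 584 and 552 CPM (log2 fold change 0.55, SE 0.14, adjusted p = 0.020). Both kept their calls and directions, at -0.81 (adjusted p = 0.0068) and 0.85 (adjusted p = 0.0059). Many ribosomal protein genes have processed pseudogenes that could share their estimated counts. Of the mitochondrial ribosomal proteins, 1 of 78 tested members was higher, 25 were lower and 52 were not called, with a median log2 fold change of -0.29, and 5 were higher and 15 lower with the trend removed. The least squares version left 29 lower, and the fit without KO_db/db mouse 1 had 0 (1 at an unadjusted p under 0.05) higher and 13 lower. Mrpl36 was at 9.22 and 10.9 CPM against 25.7, 23.7 and 21.2 CPM (log2 fold change -1.23, SE 0.14, adjusted p = 0.0016) and Mrpl33 at 6.02 and 6.37 CPM against 13.1, 13.0 and 14.7 CPM (log2 fold change -1.13, SE 0.14, adjusted p = 0.0020). In edgeR fits that left out 1 library, the call ended for Rpl4 without KO_db/db mouse 2, db/+ mouse 1 or db/+ mouse 2 (highest adjusted p = 0.081).

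Enzymes of glucose breakdown were called in both directions, among them the shuttle genes Gpd1 and Gpd2. Of the glycolysis, glycogen and pentose phosphate genes, 7 of 34 tested members were higher, 4 were lower and 23 were not called, with a median log2 fold change of 0.07. Higher and lower members numbered 8 and 6 without the length and GC trend, and 4 and 4 without KO_db/db mouse 1. The phosphofructokinase genes Pfkp and Pfkm and the isomerase gene Gpi1 were higher by 0.60, 0.52 and 0.53 on the log2 scale (adjusted p = 0.012, 0.0060 and 0.0068). Pfkfb2, which sets the level of fructose 2,6-bisphosphate, was lower at 39.8 and 39.3 CPM in KO_db/db against 63.1, 62.6 and 69.5 CPM in db/+ (log2 fold change -0.72, SE 0.09, adjusted p = 0.0022). Of the genes of pyruvate entry, the TCA cycle and shuttles, 6 of 46 tested members were higher, 9 were lower and 31 were not called, with a median log2 fold change of 0.01. Removal of the length and GC trend gave 9 higher and 7 lower, and removal of KO_db/db mouse 1 gave 2 and 7. The glycerol phosphate shuttle was split, with the mitochondrial enzyme gene Gpd2 at 49.0 and 58.9 CPM against 107, 87.7 and 91.9 CPM (log2 fold change -0.82, SE 0.13, adjusted p = 0.0045) and the cytosolic enzyme gene Gpd1 at 40.8 and 63.7 CPM against 29.6, 27.7 and 21.5 CPM (log2 fold change 1.00, SE 0.21, adjusted p = 0.012). Pdk2, a pyruvate dehydrogenase kinase, was higher at 51.3 and 43.0 CPM against 21.1, 25.7 and 26.7 CPM (log2 fold change 0.94, SE 0.14, adjusted p = 0.0035). Idh2 and Sdhc, of the TCA cycle, were lower (log2 fold changes -0.75 and -0.61, adjusted p = 0.0028 and 0.0051). With 1 library left out, the edgeR call ended for Pfkp without KO_db/db mouse 1 (highest adjusted p = 0.068), and Gpd1 without KO_db/db mouse 2 (highest adjusted p = 0.054).

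Cpt1a, Ucp2 and Ppard were higher and Hadh and Lpl lower among genes of lipid use. Of the lipid uptake, storage and oxidation genes, 12 of 36 tested members were higher, 4 were lower and 20 were not called, with a median log2 fold change of 0.15. Cpt1a, the rate-limiting carnitine transferase of fatty acid oxidation, was at 96.2 and 85.5 CPM in KO_db/db against 39.9, 45.0 and 42.9 CPM in db/+ (log2 fold change 1.09, SE 0.10, adjusted p = 0.00084). The mitochondrial carrier gene Ucp2 was at 383 and 336 CPM against 178, 207 and 209 CPM (log2 fold change 0.86, SE 0.13, adjusted p = 0.0036), and the nuclear receptor gene Ppard at 31.2 and 28.7 CPM against 17.3, 14.4 and 15.6 CPM (log2 fold change 0.93, SE 0.12, adjusted p = 0.0022). The dehydrogenase gene Hadh was lower at 488 and 432 CPM against 866, 851 and 751 CPM (log2 fold change -0.84, SE 0.16, adjusted p = 0.0077), as was the lipoprotein lipase gene Lpl at 88.6 and 73.7 CPM against 164, 134 and 136 CPM (log2 fold change -0.84, SE 0.14, adjusted p = 0.0051). Mgll, which encodes monoacylglycerol lipase, was above every lean mouse in both knockout mice, at 4.61 and 0.810 CPM against 0.0755, 0.0337 and 0.0640 CPM. Its log2 fold change was 5.46, and 3.73 without KO_db/db mouse 1, the higher of the pair. Mgll was chosen after its values were seen, and the part of acinar RNA in it was not tested. In this list 12 and 2 were called higher and lower with the length and GC trend removed, and 9 and 2 without KO_db/db mouse 1.

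Nsdhl and Fasn were higher and Ebp and Elovl5 lower in KO_db/db. Of the sterol synthesis genes, 5 of 25 tested members were higher, 2 were lower and 18 were not called, with a median log2 fold change of 0.32. These counts became 6 and 0 (2 at an unadjusted p under 0.05) without the length and GC trend, and 6 and 0 (2 at an unadjusted p under 0.05) without KO_db/db mouse 1. Nsdhl, which removes methyl groups from sterol precursors, was at 16.9 and 15.5 CPM in KO_db/db against 10.5, 10.2 and 9.82 CPM in db/+ (log2 fold change 0.67, SE 0.12, adjusted p = 0.0068). Ebp, a sterol isomerase, was at 13.5 and 13.0 CPM against 20.1, 17.3 and 20.8 CPM (log2 fold change -0.55, SE 0.13, adjusted p = 0.015). Of the fatty acid synthesis genes, 4 of 16 tested members were higher, 1 was lower and 11 were not called, with a median log2 fold change of 0.16. In the fit without KO_db/db mouse 1 the counts were 4 higher and 1 lower, and without the length and GC trend 2 and 2. Fasn, the fatty acid synthase, was at 138 and 126 CPM against 51.3, 60.0 and 63.8 CPM (log2 fold change 1.18, SE 0.11, adjusted p = 0.0010), and the elongase gene Elovl5 was lower at 93.2 and 93.7 CPM against 176, 203 and 161 CPM (log2 fold change -0.95, SE 0.12, adjusted p = 0.0024). Acaca, the acetyl-CoA carboxylase, was higher by 0.64 on the log2 scale (adjusted p = 0.0059). Among edgeR fits on 4 libraries, the call ended for Ebp without KO_db/db mouse 1, KO_db/db mouse 2 or db/+ mouse 1 (highest adjusted p = 0.060). With the length and GC trend removed, Ebp, Fasn and Acaca did not keep their calls (adjusted p from 0.063 to 0.91), and Acaca had a log2 fold change of -0.11.

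Genes of DNA replication such as E2f1, Mcm6 and Pcna were lower, and Mki67 was higher. Of the DNA replication and mitosis genes, 1 of 46 tested members was higher, 18 were lower and 27 were not called, with a median log2 fold change of -0.70. E2f1, a driver of S phase entry, was at 8.95 and 11.1 CPM in KO_db/db against 20.5, 18.3 and 24.1 CPM in db/+ (log2 fold change -1.06, SE 0.17, adjusted p = 0.0044). The replicative helicase gene Mcm6 was at 8.95 and 8.30 CPM against 13.8, 11.7 and 17.0 CPM (log2 fold change -0.72, SE 0.18, adjusted p = 0.023), and the polymerase clamp gene Pcna at 17.4 and 16.5 CPM against 28.7, 25.0 and 29.8 CPM (log2 fold change -0.72, SE 0.12, adjusted p = 0.0052). Mki67 was the only member higher, at 4.72 and 4.34 CPM against 0.944, 0.741 and 0.704 CPM (log2 fold change 2.51, SE 0.29, adjusted p = 0.0016), and is a common marker of cycling cells. Mitotic genes such as Top2a were lower (log2 fold change -1.14, adjusted p = 0.019), and Ccnb1 was not called (log2 fold change -0.56, adjusted p = 0.34). In this list 1 and 13 were called higher and lower with the length and GC trend removed, and 1 and 7 without KO_db/db mouse 1. Of the cyclin D, CDK and inhibitor genes, 1 of 21 tested members was higher, 3 were lower and 17 were not called, with a median log2 fold change of -0.24. Higher and lower members numbered 1 and 4 without the length and GC trend, and 1 and 2 without KO_db/db mouse 1. The cell cycle inhibitor gene Cdkn1a, which encodes p21, was at 77.0 and 41.8 CPM against 18.0, 22.1 and 15.7 CPM (log2 fold change 1.67, SE 0.26, adjusted p = 0.0045), and Bmi1, a Polycomb gene that represses the Cdkn2a locus, at 56.4 and 49.2 CPM against 96.3, 94.8 and 88.3 CPM (log2 fold change -0.82, SE 0.10, adjusted p = 0.0019). Cdkn1b, which encodes p27, and Cdk4 were lower (log2 fold changes -0.71 and -0.58, adjusted p = 0.011 and 0.0059). Removal of 1 library ended the edgeR call for Mcm6 without KO_db/db mouse 1, KO_db/db mouse 2 or db/+ mouse 1 (highest adjusted p = 0.091), Top2a without KO_db/db mouse 2 or db/+ mouse 1 (highest adjusted p = 0.083), and Cdkn1b without KO_db/db mouse 1 (highest adjusted p = 0.055). Once that trend was removed, Pcna did not keep its call (adjusted p = 0.17). The trend-free log2 fold change was 1.83 for Mki67, with the call kept.

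Immediate early genes, which calcium and cAMP induce within minutes, included Egr1, Junb and Sik1 among those higher. Of this list, 11 of 26 tested members were higher, 1 was lower and 14 were not called, with a median log2 fold change of 0.93. Egr1, a zinc finger factor, was at 109 and 213 CPM in KO_db/db against 33.5, 27.6 and 38.7 CPM in db/+ (log2 fold change 2.28, SE 0.28, adjusted p = 0.0020). The AP-1 gene Junb was even between the knockout mice, at 37.4 and 39.8 CPM against 16.3, 15.9 and 14.1 CPM (log2 fold change 1.32, SE 0.11, adjusted p = 0.00074). Jun was not, at 30.8 and 96.1 CPM against 21.8, 17.3 and 21.8 CPM (log2 fold change 1.65, SE 0.42, adjusted p = 0.021). The cAMP-induced kinase gene Sik1 was at 10.3 and 9.29 CPM against 0.868, 0.472 and 1.31 CPM (log2 fold change 3.46, SE 0.37, adjusted p = 0.0013). Fos, Fosb and Dusp1 differed by 4 times or more between the knockout mice, with Fos at 51.1 and 269 CPM against 124, 109 and 122 CPM, so that mouse 1 lay below and mouse 2 above the lean mice, and none of the 3 was called. Crem was the only member lower (log2 fold change -0.93, adjusted p = 0.0079). In this list 10 and 1 were called higher and lower with the length and GC trend removed, and 12 and 1 without KO_db/db mouse 1. The edgeR call ended, with 1 library left out, for Jun without KO_db/db mouse 2, db/+ mouse 1 or db/+ mouse 2 (highest adjusted p = 0.073). Jun had a log2 fold change of 2.24 without KO_db/db mouse 1 and 0.59 without KO_db/db mouse 2.

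The clock repressor genes Nr1d1, Per1, Per2 and Cry2 were higher in KO_db/db. CLOCK and ARNTL drive the Per, Cry and Nr1d genes, whose proteins repress them in turn. Of the circadian clock genes, 8 of 19 tested members were higher, 0 were lower (1 at an unadjusted p under 0.05, 0 by DESeq2) and 11 were not called, with a median log2 fold change of 0.65. Nr1d1, which encodes the repressor REV-ERBα, was at 196 and 176 CPM in KO_db/db against 29.8, 27.3 and 30.5 CPM in db/+ (log2 fold change 2.67, SE 0.10, adjusted p = 0.00024). Per1 was at 116 and 73.8 CPM against 14.0, 11.3 and 15.2 CPM (log2 fold change 2.82, SE 0.22, adjusted p = 0.00069) and Per2 at 23 and 18.8 CPM against 5.74, 5.19 and 4.86 CPM (log2 fold change 1.99, SE 0.15, adjusted p = 0.00069). The knockout mice lay at least 3 times above every lean mouse in each. Cry2 was at 362 and 292 CPM against 66.6, 100.5 and 80.2 CPM (log2 fold change 1.99, SE 0.19, adjusted p = 0.00095). Ciart, a further repressor, was at 13.0 and 7.40 CPM against 1.66, 3.98 and 1.12 CPM (log2 fold change 2.17, SE 0.52, adjusted p = 0.018), and Hlf, a PAR-domain output factor, at 18.8 and 27.8 CPM against 12.3, 13.7 and 8.73 CPM (log2 fold change 1.01, SE 0.24, adjusted p = 0.016). The activators were not called, with Arntl at 13.0 and 12 CPM against 4.12, 7.11 and 9.63 CPM (log2 fold change 0.84, adjusted p = 0.078) and Clock at 57.0 and 61.5 CPM against 68.6, 69.3 and 72.5 CPM (log2 fold change -0.24, adjusted p = 0.064). Nr1d2 and Dbp overlapped between groups, with log2 fold changes of -0.20 and 0.24, and the repressor genes Cry1 and Per3 were not called (log2 fold changes 0.41 and 0.94, adjusted p = 0.086 and 0.13). Without KO_db/db mouse 1, 5 members were called higher. Without the length and GC trend, 7 members were higher and Clock was lower, at -0.62 (adjusted p = 0.0036). In edgeR fits that left out 1 library, the call ended for Ciart without KO_db/db mouse 1 or db/+ mouse 1 (highest adjusted p = 0.098), and Hlf without KO_db/db mouse 2 (highest adjusted p = 0.092). Removing the length and GC trend moved the log2 fold change to 2.18 for Per1. For Ciart the log2 fold change was 2.87 without db/+ mouse 2.

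**Figure D5:**
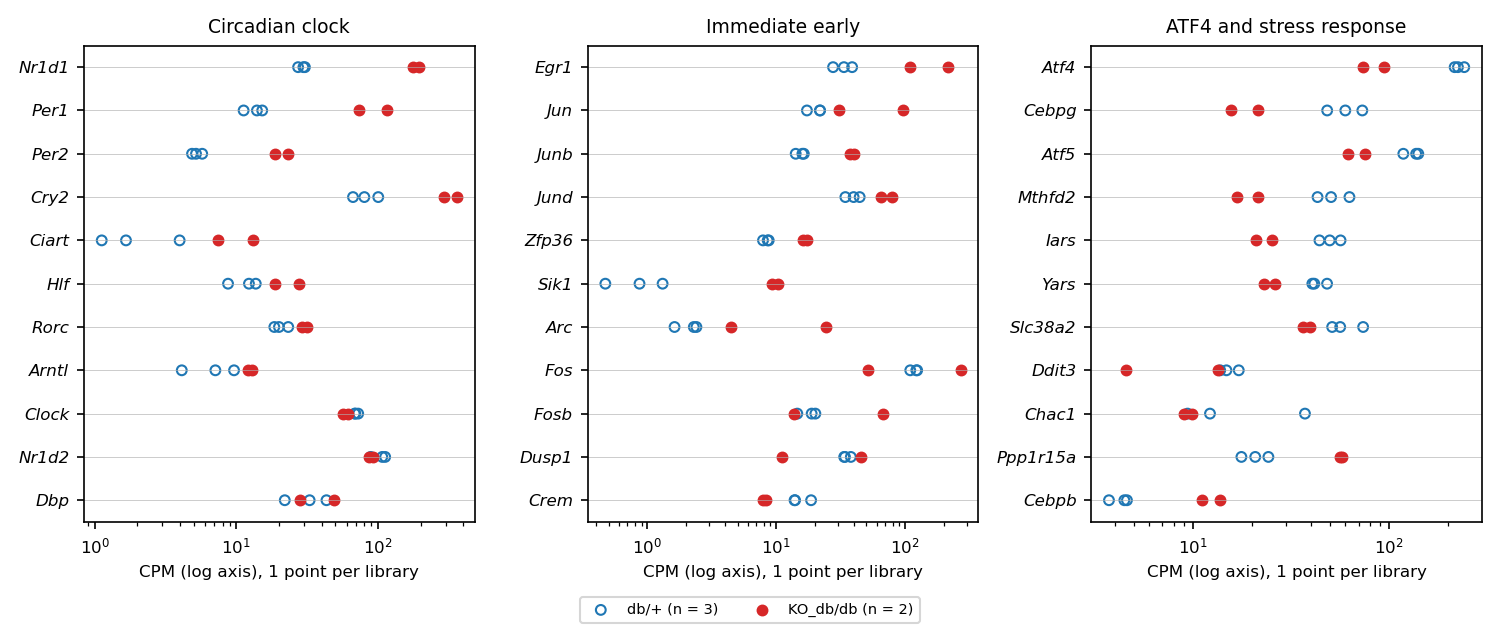
CPM per library, on a log axis, of clock genes (left), immediate early genes (middle) and ATF4-related genes (right), with filled red points for the 2 KO_db/db and open blue points for the 3 db/+ libraries. Nr1d1, Per1, Per2 and Cry2 are apart and tight within groups, Fos and Dusp1 have 1 knockout library on each side of the lean libraries, and Atf4, Cebpg and Mthfd2 lie to the left in KO_db/db.

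CLOCK and ARNTL bind the E-box CACGTG, a palindrome that reads the same on both strands, and the promoters of 3 clock genes that rose are printed to show where these letters stand. Each sequence is the 250 bases before the RefSeq transcription start, read 5′ to 3′ on the gene's strand (build GRCm38.p6), in lower case with E-boxes in capitals. The Ciart window (chr3:95882229-95882478, minus strand) held 3 matches, the Per1 window (chr11:69098699-69098948, plus strand) 1, and the Nr1d1 window (chr11:98775378-98775627, minus strand) 0.
Ciart: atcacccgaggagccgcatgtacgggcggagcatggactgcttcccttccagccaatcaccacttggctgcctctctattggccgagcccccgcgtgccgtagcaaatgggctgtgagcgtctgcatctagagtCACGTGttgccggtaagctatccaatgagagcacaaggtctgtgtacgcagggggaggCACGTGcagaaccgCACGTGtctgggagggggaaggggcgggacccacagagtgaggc
Per1: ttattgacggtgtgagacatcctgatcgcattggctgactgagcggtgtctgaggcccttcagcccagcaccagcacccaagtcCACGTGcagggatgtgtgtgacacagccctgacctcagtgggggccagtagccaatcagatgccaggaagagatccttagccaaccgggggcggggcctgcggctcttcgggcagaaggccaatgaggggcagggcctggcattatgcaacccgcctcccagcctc
Nr1d1: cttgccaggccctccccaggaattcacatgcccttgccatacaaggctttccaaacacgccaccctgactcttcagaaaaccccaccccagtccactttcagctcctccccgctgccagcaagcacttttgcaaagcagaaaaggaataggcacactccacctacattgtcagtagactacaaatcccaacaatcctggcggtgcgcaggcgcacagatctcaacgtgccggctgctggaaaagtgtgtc
The matches of Ciart began 116, 58 and 44 bases before the start and that of Per1 166 bases before it. A second Per1 start had a window without the motif. Of 16 clock genes with a window, 5 held the motif, 2 of the 6 called higher (Ciart and Per1) and 3 of the 10 not called (Bhlhe41, Cry1 and Tef), and 6.02% of all 32851 windows held it. A match is a description of letters in this window and does not show binding.

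The interferon response gene Usp18 and the MHC class I gene B2m were lower. Of this list, 2 of 33 tested members were higher, 8 were lower and 23 were not called, with a median log2 fold change of -0.47. Removal of the length and GC trend gave 2 higher and 6 lower, and removal of KO_db/db mouse 1 gave 1 and 5. Usp18, which limits interferon signalling, was at 6.47 and 7.63 CPM in KO_db/db against 16.5, 13.6 and 16.4 CPM in db/+ (log2 fold change -1.13, SE 0.16, adjusted p = 0.0029). B2m, the light chain of MHC class I, was at 19.6 and 12.9 CPM against 29.8, 41.3 and 30.7 CPM (log2 fold change -1.07, SE 0.23, adjusted p = 0.012), while the class I gene H2-T23 was higher at 40.1 and 45.7 CPM against 22.9, 28.1 and 19.4 CPM (log2 fold change 0.87, SE 0.16, adjusted p = 0.0080). Of the inflammatory genes, 2 of 13 tested members were higher, 0 were lower (1 at an unadjusted p under 0.05, 0 by DESeq2) and 11 were not called, with a median log2 fold change of 0.32. The called members were the interleukin-6 receptor gene Il6ra, at 245 and 215 CPM against 77.0, 92.0 and 88.4 CPM (log2 fold change 1.42, SE 0.12, adjusted p = 0.00074), and the signalling adaptor gene Traf3, at 46.4 and 47.8 CPM against 22.5, 20.4 and 25.4 CPM (log2 fold change 1.05, SE 0.12, adjusted p = 0.0015). B2m did not, without the length and GC trend, keep its call (adjusted p = 0.40). With that trend removed, the log2 fold change was 0.71 for Il6ra and 0.39 for Traf3.

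Retinaldehyde dehydrogenases such as ALDH1A3 make retinoic acid, which acts on RAR and RXR nuclear receptors. Of the retinoid handling genes, 5 of 19 tested members were higher, 1 was lower and 13 were not called, with a median log2 fold change of 0.20. These counts became 5 and 2 without the length and GC trend, and 3 and 1 without KO_db/db mouse 1. The receptor gene Rxra was at 74.7 and 70.0 CPM in KO_db/db against 25.2, 31.2 and 21.7 CPM in db/+ (log2 fold change 1.47, SE 0.15, adjusted p = 0.0013), and Rara was higher by 0.85 on the log2 scale (adjusted p = 0.0064). Dhrs3, a retinaldehyde reductase that retinoic acid induces, was at 2.93 and 0.990 CPM against 0.378, 0.168 and 0.0320 CPM (log2 fold change 3.34, SE 0.87, adjusted p = 0.024), with most of the rise in mouse 1. Aldh1a1, a related dehydrogenase, was also carried by mouse 1, at 3.96 and 0.788 CPM against 0.302, 0.101 and 0.0320 CPM (log2 fold change 4.02, SE 0.97, adjusted p = 0.018). The alcohol dehydrogenase gene Adh1 was lower at 64.3 and 78.9 CPM against 134, 165 and 117 CPM (log2 fold change -0.95, SE 0.17, adjusted p = 0.0070). Rara, Dhrs3 and Aldh1a1 lie outside the rule for named genes and were chosen after their values were seen. With 1 library left out, the edgeR call ended for Dhrs3 and Aldh1a1 without KO_db/db mouse 1 or db/+ mouse 2 (highest adjusted p = 0.17). Dhrs3 had a log2 fold change of 2.36 without KO_db/db mouse 1 and 4.24 without db/+ mouse 1. Aldh1a1 had a log2 fold change of 2.44 without KO_db/db mouse 1, 4.76 without KO_db/db mouse 2 and 5.08 without db/+ mouse 1.

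Markers of other pancreatic cells moved with the groups to different degrees. Of acinar genes other than the enzymes, 11 of 15 tested members were higher, 0 were lower (0 at an unadjusted p under 0.05, 0 by DESeq2) and 4 were not called. Genes near 0 in the lean libraries could pass the low-count filter through the knockout libraries and could hardly be called lower. Cckar in this list and Sox9 among the ductal markers are examples. In the fit without KO_db/db mouse 1 the counts were 6 higher and 1 lower, and without the length and GC trend 11 and 0 (0 at an unadjusted p under 0.05). The summed level of this list was 458 and 99.8 CPM in KO_db/db against 118, 84.6 and 86.3 CPM in db/+. By this sum alone KO_db/db mouse 2 lay within the lean range, and the sum can hide rises of genes at low levels. Taken gene by gene, the median difference over the 15 members was 5.42 on the log2 scale. It was 3.12 without KO_db/db mouse 1, in a fit with 1 knockout library. Among the genes of this list Cckar was at 17.5 and 2.52 CPM in KO_db/db against 0.0378, 0 and 0 CPM in db/+, and the acinar factor gene Ptf1a had 26 and 10 counts in KO_db/db and 0 in each db/+ library. In both genes KO_db/db mouse 2 thus lay above every lean library. Of the ductal markers, 9 of 13 tested members were higher, 0 were lower (0 at an unadjusted p under 0.05, 0 by DESeq2) and 4 were not called, with a median log2 fold change of 0.72, and their summed level was 723 and 765 CPM in KO_db/db against 497, 537 and 515 CPM in db/+. Sox9, which defines duct cells, was at 0.914 and 0.945 CPM against 0.0755, 0 and 0.416 CPM and was not called (adjusted p = 0.11), while the keratin genes Krt8 and Krt18 were higher by 0.54 and 0.50 on the log2 scale (adjusted p = 0.0068 and 0.023). Spp1, osteopontin, was at 11.8 and 38.7 CPM against 3.02, 1.82 and 3.45 CPM (log2 fold change 3.2, SE 0.51, adjusted p = 0.0045), and here mouse 2 was the higher. Of the α-cell markers, 4 of 10 tested members were higher, 1 was lower and 5 were not called, with a median log2 fold change of 0.05. Higher and lower members numbered 3 and 1 without the length and GC trend, and 1 and 1 without KO_db/db mouse 1. Glucagon, Gcg, overlapped at 952 and 574 CPM against 1002, 1091 and 352 CPM. Of the δ-cell and PP-cell markers, 1 of 8 tested members was higher, 0 were lower (0 at an unadjusted p under 0.05, 0 by DESeq2) and 7 were not called, with a median log2 fold change of 0.38, with Sst overlapping at 586 and 463 CPM against 2095, 671 and 339 CPM. Of the endothelial markers 2 of 8 were higher and 1 lower, and of the macrophage and dendritic markers 1 of 5 was lower. The part of these cells in the differences above was not tested. Among edgeR fits on 4 libraries, the call ended for Krt18 without KO_db/db mouse 1, KO_db/db mouse 2, db/+ mouse 1 or db/+ mouse 2 (highest adjusted p = 0.11). For Spp1 the log2 fold change was 3.80 without KO_db/db mouse 1 and 2.07 without KO_db/db mouse 2.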

How the data were processed

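β-cells sorted from islets were profiled by poly-A RNA-seq (TruSeq, paired-end reads). The authors quantified reads with kallisto 0.44.0 against the mouse transcriptome (GRCm38) after base calling with bcl2fastq 2.19, and the deposited table holds estimated counts per gene symbol, given as whole numbers. The annotation release is not given in the sources used here. The 2 libraries of obese mice without the knockout were not used here. The members and gene lists were chosen with earlier results of these data known.

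Counts of the 5 libraries (27496645 to 35852785 in total) were filtered with filterByExpr (minimum count 10), scaled by TMM and tested with edgeR 4.0.16 in R 4.3.3 by quasi-likelihood F-test of KO_db/db against db/+, with Benjamini-Hochberg adjustment over the 13228 tested genes and a threshold of 0.05. The authors' own gene-level tests used DESeq2, which was run here as an alternative. SE is the absolute log2 fold change divided by the square root of F. Replicates are mice as labelled, and their counts differed beyond sampling noise (chi-square per gene 17.4 to 397 between libraries of a group). Counting error alone is small at this depth for genes over 10 CPM, and 3 counts were taken as the floor of detection. Transcript lengths and GC content came from GENCODE M21 (34222 symbols matched) and promoters from RefSeq (GRCm38.p6).

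Leading genes were the 12 in each direction with the largest gap between the lowest value of the higher group and the highest value of the lower group. They had to be called, without overlap, at a mean of at least 10 CPM, with KO_db/db libraries within a factor of 2, and outside the acinar, Reg and other cell type lists. In each list the 3 largest rises and 3 largest falls with a call, no overlap and at least 10 CPM could be named. Other list genes were named to define a list or account for its calls, after their values were seen, and some genes that met the rule are not reported here. Alternatives included DESeq2 1.42.0, other scalings and filters, a replicate block and leaving out each library. A trend in length and GC, seen in the data, was removed from each library's log2 CPM deviation by a spline fitted with Huber regression (MASS 7.3.60.0.1), leaving acinar enzymes and Reg out, or by least squares over all genes. These alternatives were added after seeing the data. On simulated counts with the depths of these libraries, edgeR called 175 of 200 genes changed by a log2 fold change of 2 and 4 other genes, among 13251 tested. The simulation used a dispersion of 0.1 for every gene and drew the changed genes from well-expressed ones. Its libraries shared the same profile otherwise, without a length or GC trend or an acinar excess in 1 mouse. It checks the code and does not give the rates of missed or false calls in these data.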

Additional observations from a re-analysis of the deposited data

How the results depend on the processing

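Of the 13180 genes, 2664 were higher and 2369 lower. An adjusted p under 0.01 kept 1447 and 912, and an absolute log2 fold change over 1 kept 1225 and 611. Fitting the length and GC trend by least squares, which left it in the shortest transcripts, gave 1644 higher and 2741 lower. Leaving out 1 library gave between 1723 and 2556 higher and between 1294 and 2125 lower, with the fewest without KO_db/db mouse 1. The lower count also moved by more than 1.5 times without db/+ mouse 1 (1435) and without db/+ mouse 2 (1501). Scaling by RLE, DESeq2, no filter on low counts, a filter of 1 CPM, scaling or counts without acinar genes and robust dispersion gave between 2641 and 2936 higher and between 2294 and 2534 lower. Same-numbered mice did not deviate together (correlations of -0.11 and -0.13 for mice 1 and 2), so a fit with the replicate number as a block, which called 2099 higher and 1661 lower, is not a paired analysis. The log2 fold change of Aldh1a3 lay between 3.99 and 5.53 without 1 library, with a call in all 18 alternatives. Of 174 genes named by rule, 169 kept their direction and 70 also their call throughout. The alternatives include stricter cut-offs: an absolute log2 fold change over 1 alone ended 89 of these calls, and an adjusted p under 0.01 ended 52. Reversals came with removal of a length trend: Acaca at -0.00123, Atf6 at -0.0066, Igf2r at -0.22 and Rora at -0.12 (length), Acaca at -0.11 and Igf2r at -0.39 (length and GC), and Acaca at -0.12, Igf2r at -0.43 and Stat3 at -0.062 (least squares). Their cause was not tested.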

Other observations

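Genes of the lysosome and of autophagy were called in both directions. Of this list, 6 of 34 tested members were higher, 12 were lower and 16 were not called, with a median log2 fold change of -0.23, and 2 and 8 were called higher and lower with the length and GC trend removed, and 2 and 7 without KO_db/db mouse 1. Atp6v1a, a subunit of the proton pump that acidifies lysosomes and granules, was at 67.9 and 57.3 CPM in KO_db/db against 123.5, 133 and 111 CPM in db/+ (log2 fold change -0.97, SE 0.12, adjusted p = 0.0022). The tetraspanin gene Cd63 and the autophagy gene Atg5 were lower too (log2 fold changes -0.74 and -0.67, adjusted p = 0.0051 and 0.0058). Gaa, the acid α-glucosidase, was higher at 192 and 209 CPM against 131, 112 and 122 CPM (log2 fold change 0.72, SE 0.11, adjusted p = 0.0036), as was Sqstm1, the autophagy receptor p62 (log2 fold change 0.47, adjusted p = 0.017). Removal of 1 library ended the edgeR call for Sqstm1 without KO_db/db mouse 1, db/+ mouse 1 or db/+ mouse 2 (highest adjusted p = 0.071). After removal of the length and GC trend, Atg5 and Gaa did not keep their calls (adjusted p from 0.050 to 0.13).

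Of the primary cilium genes, 1 of 26 tested members was higher, 9 were lower and 16 were not called, with a median log2 fold change of -0.20, and 1 and 5 were called higher and lower with the length and GC trend removed, and 1 and 4 without KO_db/db mouse 1. Cep290, a protein of the ciliary transition zone, was the only member higher, at 31.5 and 23 CPM in KO_db/db against 4.76, 5.02 and 11.1 CPM in db/+ (log2 fold change 1.96, SE 0.37, adjusted p = 0.0081). The intraflagellar transport genes Ift80 and Ift46 and the BBSome-recruiting GTPase gene Arl6 were lower (log2 fold changes -0.88, -0.57 and -0.79, adjusted p = 0.0042, 0.042 and 0.0030). The edgeR call ended, with 1 library left out, for Ift46 without KO_db/db mouse 1, db/+ mouse 2 or db/+ mouse 3 (highest adjusted p = 0.17). Without the length and GC trend, Arl6 did not keep its call (adjusted p = 0.31).

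Of the imprinted genes, 4 of 21 tested members were higher, 6 were lower and 11 were not called, with a median log2 fold change of -0.15, and 4 and 8 were called higher and lower with the length and GC trend removed, and 2 and 3 without KO_db/db mouse 1. Nnat, neuronatin, which acts in the handling of preproinsulin, was at 9.60 and 13.5 CPM in KO_db/db against 34.1, 33.5 and 18.5 CPM in db/+ (log2 fold change -1.30, SE 0.30, adjusted p = 0.015). Impact, an inhibitor of the eIF2α kinase GCN2, was at 15.5 and 22.3 CPM against 52.3, 49.3 and 44.4 CPM (log2 fold change -1.36, SE 0.17, adjusted p = 0.0022), and Peg3 was lower by a log2 fold change of -0.84 (adjusted p = 0.019). Igf2r, the clearance receptor of IGF2, was higher by 0.37 on the log2 scale (adjusted p = 0.028), and lower with the length and GC trend removed, at -0.39 (adjusted p = 0.021). In edgeR fits that left out 1 library, the call ended for Nnat without KO_db/db mouse 1 (highest adjusted p = 0.083), and Peg3 without KO_db/db mouse 2, db/+ mouse 1 or db/+ mouse 2 (highest adjusted p = 0.080). The trend-free log2 fold change was -1.43 for Peg3, with the call kept.

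Of the cell adhesion and cytoskeleton genes, 11 of 32 tested members were higher, 7 were lower and 14 were not called, with a median log2 fold change of 0.24, and 9 and 7 were called higher and lower with the length and GC trend removed, and 6 and 5 without KO_db/db mouse 1. The neural adhesion gene Ncam1 was at 64.1 and 72.5 CPM in KO_db/db against 25.7, 26.6 and 25.9 CPM in db/+ (log2 fold change 1.39, SE 0.09, adjusted p = 0.00063). Nectin1 was at 29.7 and 25.8 CPM against 9.70, 10.4 and 11.8 CPM (log2 fold change 1.38, SE 0.13, adjusted p = 0.00096) and the N-cadherin gene Cdh2 at 225 and 210.4 CPM against 89.6, 107 and 107 CPM (log2 fold change 1.11, SE 0.11, adjusted p = 0.0012). In these 3 genes every knockout value lay above every lean value, as the rule for naming them required. The α-tubulin genes Tuba1a and Tuba1b were lower (log2 fold changes -0.86 and -1.25, adjusted p = 0.012 and 0.0041), and these near-identical genes could share estimated counts. With 1 library left out, the edgeR call ended for Tuba1a without KO_db/db mouse 1 (highest adjusted p = 0.070). Removing the length and GC trend moved the log2 fold change to 0.62 for Nectin1.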
